A study of Homo sapiens with 8 samples.

Results

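Protocadherins are the largest group of cadherin adhesion proteins, and the human genes of this group were examined in LN229, an established glioblastoma cell line, after exposure to a pair of drugs. The members are the 66 genes of the deposited expression table, out of 58735 in all, whose symbols are PCDHA, PCDHB, PCDHGA, PCDHGB, PCDHAC or PCDHGC with a number, or PCDH with a number that may end in X. They comprise 16 alpha, 16 beta and 22 gamma genes, which lie next to each other on chromosome 5, and 12 non-clustered genes elsewhere. Of the gamma genes, 12 are of type A, 7 of type B and 3 of type C. The rule reads symbols only. The study set 4 samples of cells treated for 48 h with 2 drugs at once (the combination), the proteasome inhibitor bortezomib (7.5 nM) and the histone deacetylase inhibitor panobinostat (15 nM), against 4 samples given the solvent DMSO. The labels call these controls untreated in one field and DMSO in another, and their extraction protocol mentions brain tissue although each sample is labelled as the cell line. Neither drug was given alone in these samples, so the effects of bortezomib and panobinostat cannot be told apart. The labels do not say whether the 4 samples of a group were grown separately. The p-values therefore describe the spread among these 8 samples, which could be purely technical.

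Protocadherins are transmembrane proteins whose extracellular cadherin repeats bind the same protein on a neighbouring cell. Each alpha and gamma gene has its own promoter and its own large first exon, which encodes the extracellular part and the membrane span and is spliced to short constant exons that all genes of that cluster share. Beta genes have a single large coding exon and no constant exons. In neurons each cell is known to transcribe a small, partly random choice of clustered genes, and the set displayed gives the cell a surface identity. This choice is known to involve DNA methylation of the promoters and loops between promoters and distant enhancers held by CTCF and cohesin. Most clustered promoters carry a short conserved element with the core CGCT.

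Each library held 15189251 to 17324292 reads assigned to genes, and the members took 0.0554 to 0.0595% of these reads in combination samples, against 0.125 to 0.138% in DMSO samples. For a gene 1 kb long, 3 reads equal 0.173 to 0.197 FPKM (fragments per kilobase of exon, scaled to library size), so values of such a gene under this mark rest on few reads. For longer genes the mark is lower: PCDH15, with 15423 exon bases, had 26 reads at 0.0986 FPKM in combination replicate 2. Such floors cover counting error only. At least 3 reads were present for 56 to 60 of the 66 members in each combination library and for 52 to 54 in each DMSO library. PCDH8, PCDH11X and PCDHA14 had 0 reads in all 8 libraries, and all exon bases of PCDHA14 lie under exons of PCDHA10. Of the markers of glioma lines, VIM, NES, TNC, FN1, CD44, SOX2 and EGFR were present in both groups, while CHI3L1 was listed at 0 in each DMSO library. The astrocyte marker GFAP stood at 0.0217 to 0.0722 FPKM in combination samples and 0.214 to 0.223 FPKM in DMSO samples, so this defining marker of astrocytic tumours was low in both groups.

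The summed level of the alpha genes was higher after the combination, and that of the beta, gamma and non-clustered genes was lower. The alpha sum was 4.34, 4.31, 3.99 and 4.78 FPKM in combination samples, against 1.04, 1.40, 1.10 and 1.61 FPKM in DMSO samples. The gamma sum was 14.9, 14.2, 13.9 and 14.6 FPKM in combination samples, against 79.9, 74.7, 77.4 and 87.5 FPKM in DMSO samples. Both sums had groups that did not overlap, with the alpha mean 3.39 times as high and the gamma mean 5.55-fold lower. The beta sum averaged 64.1 ± 0.962 FPKM in combination samples and 103.8 ± 3.19 FPKM in DMSO samples (SD, n = 4 each). The non-clustered sum averaged 33.6 ± 1.42 FPKM in combination samples and 53.5 ± 2.19 FPKM in DMSO samples (SD, n = 4 each). The beta and non-clustered means were 0.617 and 0.628 times as high after the combination, also with no overlap between groups. Sums over members were not tested, because the members were chosen with results of these data known. In bulk RNA, fewer cells that transcribe a gene and less RNA per cell cannot be told apart.

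**Figure D1:**
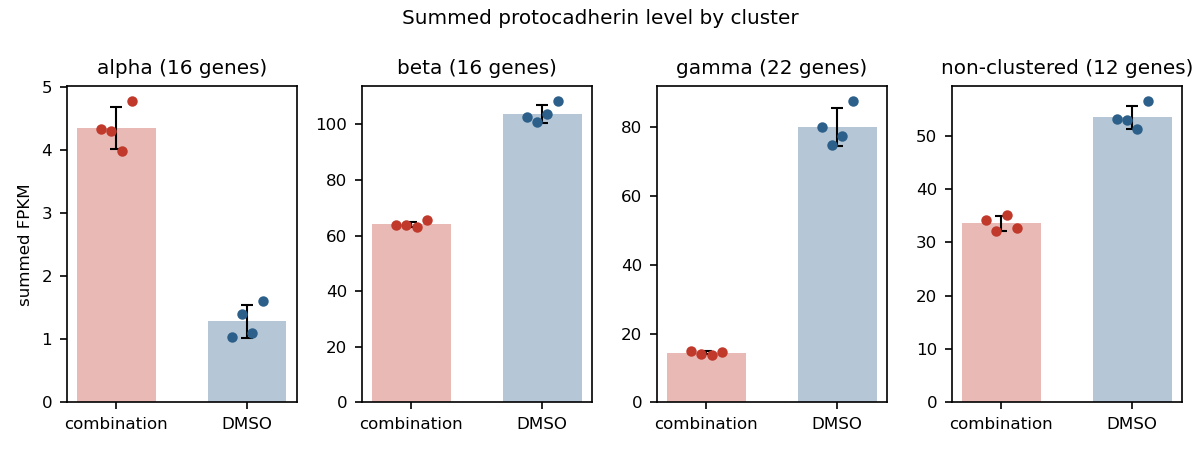
Summed FPKM of the alpha, beta, gamma and non-clustered protocadherin genes, 1 panel each, in combination samples and DMSO samples. Bars are means, error bars are SD over 4 samples and points are the samples. The groups do not overlap in any panel, and alpha is the panel in which the combination stands higher.

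The make-up of the clustered transcripts differed accordingly. Alpha genes supplied 8.16 ± 0.491% of the clustered reads in combination samples and 1.01 ± 0.189% in DMSO samples. Beta genes supplied 69.1 ± 0.522% in combination samples and 47.3 ± 1.01% in DMSO samples. Gamma genes supplied 22.7 ± 0.293% in combination samples and 51.7 ± 0.950% in DMSO samples (SD, n = 4 each). Gamma was thus the cluster with most reads in DMSO cells, and beta the one with most reads in treated cells. This change of order holds for reads only. In summed FPKM, beta averaged above gamma in both groups, at 103.8 and 79.9 FPKM in DMSO samples and 64.1 and 14.4 FPKM in combination samples. How reads in exons shared by alpha or by gamma genes were counted is not stated, which bears on these shares.

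Counts of single genes followed the sums. A gene was called where limma, fitted on log2(FPKM + 1) over the whole table, gave a Benjamini-Hochberg adjusted p under 0.05. Of 13296 genes that averaged 1 FPKM or more, 36.9% were called higher and 41.0% lower (4902 and 5445 genes), so a call by itself set no gene apart. With upper-quartile scaling the split was 7626 higher and 3123 lower. Of the members, 26 reached that mean: no alpha gene, 15 beta, 5 gamma and 6 non-clustered genes. Of these 26, 4 were called higher, 20 lower and 2 were not called, and with upper-quartile scaling the split was 5 higher and 16 lower of 24 tested. A gene above the mark only through its higher group had to differ, so these counts describe and support nothing. PCDHGB7, PCDHGC5, PCDHGA6, PCDH12, PCDH18 and PCDH9 passed the mark in this way, with 1 group under 1 FPKM, and each was also called in the fit with no filter (limma adjusted p 2.55e-07 to 0.000303). The fit with no filter on low values covered all 63 members with any read. It called 14 higher, 32 lower and 17 neither, where 20% of 38736 genes were called higher and 16.5% lower. The median log2 difference in that fit was 0.18 over 15 alpha genes, -0.57 over 16 beta, -0.38 over 22 gamma and -0.25 over 10 non-clustered genes, beside 0.03 over all genes tested. By the plain criterion that no sample of one group reached into the other, 13 of the 66 members stood higher and 35 lower after the combination, where 20.6% and 16.4% of all genes with any read did.

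All 22 gamma genes had a lower mean after the combination, and in 20 of the 22 the groups did not overlap. The fit with no filter called 17 of them lower and none higher. PCDHGC3, the type C gene known in mouse to bind the Wnt scaffold protein Axin1, held most gamma reads of DMSO cells. It lies at chr5:141475947-141512979 (GRCh38, plus strand). PCDHGC3 stood at 6.98, 6.61, 5.98 and 6.62 FPKM in combination samples, against 56.7, 52.1, 54.6 and 61.9 FPKM in DMSO samples. Every combination sample was far under every DMSO sample, and the log2 difference was -2.92 ± 0.06 (SE; limma adjusted p = 1.86e-10). It supplied 45.8 ± 1.68% of gamma reads in combination samples and 70.8 ± 0.657% in DMSO samples (SD, n = 4 each). The fall was not that of PCDHGC3 alone: the sum of the other 21 gamma genes averaged 7.85 ± 0.207 FPKM in combination samples and 23.6 ± 1.43 FPKM in DMSO samples (SD, n = 4 each), and these groups did not overlap.

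The other type C genes were lower as well. The summed type C level was 8.33-fold lower after the combination, against 2.62-fold for type A and 2.99-fold for type B. Most of the type C sum was PCDHGC3, at a mean of 56.3 of 59.0 FPKM in DMSO samples. By gene the types overlapped: PCDHGC5 and PCDHGC4 were 3.94-fold and 9.51-fold lower, PCDHGA6 3.95-fold and PCDHGB7 8.76-fold. PCDHGC5 stood at 0.513, 0.375, 0.437 and 0.388 FPKM in combination samples, against 1.72, 1.61, 1.92 and 1.497 FPKM in DMSO samples (log2 difference -0.91 ± 0.08, limma adjusted p = 4.72e-06). PCDHGC4 had 7, 9, 9 and 8 reads in combination samples, against 99, 63, 103 and 60 reads in DMSO samples. PCDHGC4 averaged under 1 FPKM over the 8 libraries and was chosen after its values were seen. In mouse, PCDHGC4 is the gamma gene known to be needed for neuron survival after birth.

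Among the type B genes, PCDHGB2 and PCDHGB7 had the highest levels in DMSO samples, while in combination samples PCDHGB7 was below PCDHGB1 and PCDHGB6. PCDHGB2 stood at 3.07, 2.50, 2.97 and 3.36 FPKM in combination samples, against 7.98, 7.04, 7.12 and 9.86 FPKM in DMSO samples (log2 difference -1.17 ± 0.10, limma adjusted p = 4.45e-06). PCDHGB7 stood at 0.330, 0.342, 0.246 and 0.289 FPKM in combination samples, against 2.54, 2.69, 2.56 and 2.79 FPKM in DMSO samples (log2 difference -1.48 ± 0.07, limma adjusted p = 3.40e-08). The scale of log2(FPKM + 1) compresses the change of low genes: on the recovered reads, limma's voom gave PCDHGB7 a log2 difference of -3.18 ± 0.20. Of type A, only PCDHGA6 passed 1 FPKM, with 0.448, 0.488, 0.316 and 0.426 FPKM in combination samples against 1.505, 1.87, 1.67 and 1.58 FPKM in DMSO samples. Its groups were also apart (log2 difference -0.90 ± 0.08, limma adjusted p = 4.94e-06). In the fit with no filter, the 5 gamma genes not called were PCDHGA2, PCDHGA3, PCDHGA8, PCDHGB4 and PCDHGB5, and of these PCDHGA3 and PCDHGB5 had groups that overlapped. PCDHGA2 was called lower by voom (log2 difference -0.56 ± 0.22, adjusted p = 0.0269). With upper-quartile scaling the fit with no filter called 12 of the 22 gamma genes lower and none higher.

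The 250 bases before the start of PCDHGC3 are shown, with CGCT in capitals, because this gene held most gamma reads of DMSO cells. They lie at chr5:141475716-141475965 on the plus strand (RefSeq, GRCh38.p14) and hold CGCT 5 times. Windows of 3 genes of types A and B follow, at PCDHGA6 at chr5:141373829-141373868, PCDHGA10 at chr5:141412925-141412964 and PCDHGB2 at chr5:141359915-141359954 on the plus strand, each with CGCT in capitals; all 3 genes were called lower.
PCDHGC3: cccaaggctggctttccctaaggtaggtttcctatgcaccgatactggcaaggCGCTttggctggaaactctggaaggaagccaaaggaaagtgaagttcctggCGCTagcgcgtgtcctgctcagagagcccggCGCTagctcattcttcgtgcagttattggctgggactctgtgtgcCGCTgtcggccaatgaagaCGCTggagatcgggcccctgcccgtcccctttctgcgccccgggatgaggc
PCDHGA6: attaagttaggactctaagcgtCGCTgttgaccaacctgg
PCDHGA10: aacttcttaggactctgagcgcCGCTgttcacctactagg
PCDHGB2: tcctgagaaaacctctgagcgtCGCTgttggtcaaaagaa

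The promoter table of RefSeq held 57 of the 66 members, among them 13 alpha, 14 beta, 20 gamma and 10 non-clustered genes. PCDH10, PCDH20, PCDHA3, PCDHA13, PCDHA14, PCDHB6, PCDHB11, PCDHGA12 and PCDHGC5 were not matched. Promoters were searched on both strands from 250 bases before to 50 bases after each start. CGCT was found in 20 of 20 gamma, 14 of 14 beta, 12 of 13 alpha and 9 of 10 non-clustered promoters, and in 71.9% of 27305 genes, so the core alone is common. GCGNCGCTG, a longer form that contains CGCT and was spelled from these gamma promoters, was found in 13 of 20 gamma genes, in no other member and in 4.43% of all genes. Of those 13 gamma genes, 9 were called lower in the fit with no filter and 4 were not called, where 16.5% of all genes were called lower. Among gamma genes whose promoters lack it, PCDHGA4, PCDHGA5, PCDHGB3, PCDHGB7, PCDHGC3 and PCDHGC4 were called lower and PCDHGA3 was not called. The calls thus do not set the genes with this form apart. A match describes letters in a window and is not a binding site.

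The alpha genes were low in all samples, each with a mean under 1 FPKM over the 8 libraries, and they are the cluster whose genes were higher after the combination. In 9 of 16 alpha genes every combination sample stood above every DMSO sample, in none below, and in 7 the groups overlapped. These 7 include PCDHA14, with no reads, and PCDHA9, which had at most 2 reads in any library. The fit with no filter called PCDHA1, PCDHA3, PCDHA6, PCDHA7, PCDHA8, PCDHA11, PCDHA12, PCDHA13 and PCDHAC1 higher and no alpha gene lower. Voom on recovered reads, which tested the 10 alpha genes with at least 10 reads in at least 4 libraries, called 9 higher, where 35.9% of 16858 genes were called higher and 40.9% lower. PCDHA8, PCDHA11 and PCDHA12 entered the voom test only through their combination libraries. PCDHA6, with 9, 9, 8 and 18 reads in DMSO samples, and PCDHA10, with 4, 1, 2 and 10, entered it mostly through combination libraries. The count of the voom test therefore describes and supports nothing. In that test PCDHA2 and PCDHA10 were called and PCDHA5 was not (voom adjusted p = 0.0944), and PCDHA13 and PCDHAC1 were too low to enter. The number of alpha genes with at least 3 reads was 12 to 14 per combination library and 8 or 9 per DMSO library.

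Since all alpha genes were low, the ones named here were chosen after their values were seen and are given as reads. PCDHA1 had 94, 114, 85 and 104 reads in combination samples, against 21, 26, 28 and 18 reads in DMSO samples (voom log2 difference 2.06 ± 0.22, adjusted p = 2.28e-09). PCDHA3 had 124, 110, 100 and 137 reads in combination samples, against 34, 40, 32 and 38 reads in DMSO samples (voom log2 difference 1.66 ± 0.19, adjusted p = 1.39e-08). This pair supplied 48.6 ± 1.91% of alpha reads in combination samples and 43.9 ± 7.49% in DMSO samples (SD, n = 4 each). In DMSO samples PCDHA2, with 109 reads over the 4 libraries, stood above PCDHA1, with 93. PCDHA8 had 15, 31, 20 and 32 reads in combination samples, against 3, 0, 2 and 1 reads in DMSO samples. PCDHA12 had 18, 26, 17 and 15 reads in combination samples, against 2, 2, 1 and 2 reads in DMSO samples. Both were close to absent from DMSO libraries, and their groups were far apart. PCDHA13 had 6, 7, 11 and 19 reads in combination samples, against 1, 2, 0 and 0 reads in DMSO samples. PCDHAC1, one of the C-type genes that neurons are known to transcribe without random choice, had 12, 6, 6 and 18 reads in combination samples, against 0, 1, 3 and 1 reads in DMSO samples. The calls of PCDHA13, PCDHAC1 and PCDHA6 lay near the threshold, and leaving out 1 library could end them while the log2 difference moved little. PCDHA6, at 0.24 with all samples and 0.23 in each case below, was also called by voom (adjusted p = 0.000544). It entered that test mostly through its combination libraries, so the voom call adds no support. PCDHA13 was at 0.16 with all samples and 0.15 in the cases below, and PCDHAC1 at 0.11 with all samples and 0.11 to 0.12 below. PCDHA13 was not called without DMSO replicate 3 (adjusted p = 0.0551) or 4 (adjusted p = 0.0542), and PCDHA6 was not called without DMSO replicate 1 (adjusted p = 0.0580), 2 (adjusted p = 0.0557) or 3 (adjusted p = 0.0601) in limma. PCDHAC1 was not called in limma without combination replicate 1 or without any single DMSO replicate (adjusted p 0.0553 to 0.0818).

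**Figure D2:**
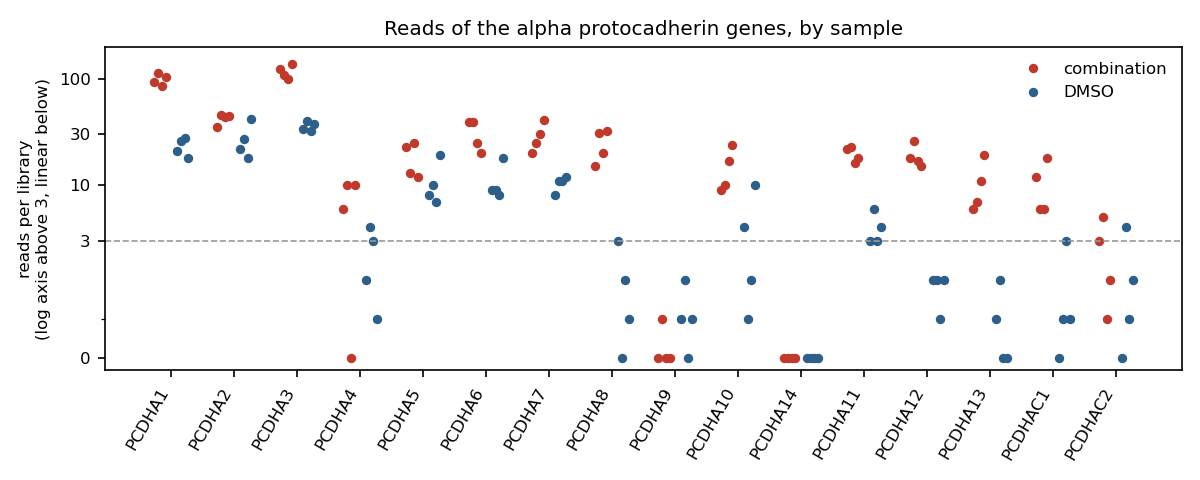
Reads of each alpha protocadherin gene in each library, in chromosome order, with combination samples left of DMSO samples. The axis is logarithmic above 3 reads and linear below, and the dashed line marks 3 reads. In PCDHA1 and PCDHA3 all combination libraries stand above 80 reads and all DMSO libraries at or under 40 reads, while PCDHA9 and PCDHA14 have hardly any reads.

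The element of the alpha promoters is shown for 5 genes that were called higher, with CGCT in capitals, because most alpha promoters carry it with the same letters around it. The windows are at PCDHA1 at chr5:140786080-140786119, PCDHA6 at chr5:140827891-140827930, PCDHA7 at chr5:140834166-140834205, PCDHA8 at chr5:140841124-140841163 and PCDHA12 at chr5:140875238-140875277 on the plus strand (RefSeq, GRCh38.p14). GATGTCGCT, which contains CGCT and was spelled from these alpha promoters, was found in 9 of 13 alpha promoters, in no beta, gamma or non-clustered promoter, and in 35 genes (0.128%) of all. Of the 9 alpha genes with it, 5 were called higher in the fit with no filter, where 20% of all genes were. The other 4 (PCDHA2, PCDHA4, PCDHA5 and PCDHA10) were not called, although their means were also higher in combination samples. Voom called PCDHA2 and PCDHA10 higher, and PCDHA10 entered that test mostly through its combination libraries. Among alpha genes whose promoters lack it, PCDHA11 and PCDHAC1 were called higher, and PCDHA9 and PCDHAC2 were not called. The 250 bases before the start of PCDHA1, the alpha gene with the highest FPKM in combination samples, follow the windows and lie at chr5:140785890-140786139 on the plus strand, with CGCT once.
PCDHA1: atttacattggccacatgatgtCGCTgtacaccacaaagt
PCDHA6: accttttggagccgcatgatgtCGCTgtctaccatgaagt
PCDHA7: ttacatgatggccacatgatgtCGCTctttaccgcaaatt
PCDHA8: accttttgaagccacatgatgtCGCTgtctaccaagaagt
PCDHA12: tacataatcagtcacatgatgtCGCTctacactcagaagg
PCDHA1: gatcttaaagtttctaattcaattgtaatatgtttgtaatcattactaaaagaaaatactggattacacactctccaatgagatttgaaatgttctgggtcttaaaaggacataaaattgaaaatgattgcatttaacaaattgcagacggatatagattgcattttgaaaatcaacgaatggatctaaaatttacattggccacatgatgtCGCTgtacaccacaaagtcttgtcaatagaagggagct

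Of the 3 clusters, beta was the one with calls in both directions, in the fit with and without the filter. The fit over genes of at least 1 FPKM called PCDHB10, PCDHB11 and PCDHB3 higher and 10 genes lower, did not call PCDHB6 and PCDHB12, and did not test PCDHB1, which had at most 8 reads. PCDHB10 was the highest of the beta genes in treated cells and PCDHB8 in DMSO cells. PCDHB10 stood at 13.2, 13.4, 12.3 and 12.9 FPKM in combination samples, against 6.35, 7.56, 7.17 and 7.10 FPKM in DMSO samples (log2 difference 0.80 ± 0.05, limma adjusted p = 4.08e-07). PCDHB8 stood at 7.59, 8.60, 9.32 and 8.95 FPKM in combination samples, against 19.4, 18.6, 20.1 and 19.9 FPKM in DMSO samples (log2 difference -1.09 ± 0.06, limma adjusted p = 9.30e-08). Neither gene's groups overlapped, and the order of the pair was opposite in the 2 groups. PCDHB8 shares 42.3% of its stretches of 50 bases with other protocadherin transcripts, most with PCDHB13, and PCDHB10 shares 31.1%, most with PCDHB9, so reads among such copies may have been split.

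PCDHB16 and PCDHB9 had the lowest ratios of the beta genes that passed 1 FPKM. PCDHB16 stood at 2.94, 2.82, 2.53 and 2.71 FPKM in combination samples, against 9.16, 8.91, 9.40 and 9.23 FPKM in DMSO samples (log2 difference -1.44 ± 0.04, limma adjusted p = 2.25e-09). Of its exon length, 24.9% lies under exons of other genes, which makes its level less certain. PCDHB9 averaged 1.03 ± 0.110 FPKM in combination samples and 4.27 ± 0.226 FPKM in DMSO samples (SD, n = 4 each; log2 difference -1.38 ± 0.06, limma adjusted p = 2.87e-08). PCDHB16 lies between PCDHB8 and PCDHB9, and PCDHB9 lies next to PCDHB10, so genes called lower and higher were direct neighbours.

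PCDHB5 stood at 5.95, 5.46, 5.65 and 6.01 FPKM in combination samples, against 11.96, 12.2, 13.1 and 14.9 FPKM in DMSO samples (log2 difference -1.05 ± 0.06, limma adjusted p = 3.18e-07). PCDHB7 stood at 4.72, 5.02, 5.11 and 5.02 FPKM in combination samples, against 12.98, 11.5, 11.6 and 12.7 FPKM in DMSO samples (log2 difference -1.14 ± 0.05, limma adjusted p = 1.95e-08). PCDHB2 stood at 6.31, 6.41, 6.16 and 6.29 FPKM in combination samples, against 10.04, 10.2, 10.8 and 11.8 FPKM in DMSO samples (log2 difference -0.68 ± 0.05, limma adjusted p = 9.45e-07). All 3 had groups apart from each other and spreads far smaller than the difference. PCDHB6, between PCDHB5 and PCDHB7 on the chromosome, averaged 5.17 ± 0.545 FPKM in combination samples and 4.72 ± 0.557 FPKM in DMSO samples (SD, n = 4 each), and its groups overlapped. PCDHB13, PCDHB14 and PCDHB15 were also called lower, with log2 differences of -0.78, -0.89 and -0.46. PCDHB4 was called lower by a small margin (log2 difference -0.21 ± 0.07, limma adjusted p = 0.0209), not without combination replicate 4, DMSO replicate 1 or DMSO replicate 4 (adjusted p = 0.0533, 0.0524 and 0.0582), and its difference was 0.04 with upper-quartile scaling. PCDHB15 was not called with that scaling either (limma adjusted p = 0.103). PCDHB11 averaged 2.23 ± 0.151 FPKM in combination samples and 1.36 ± 0.276 FPKM in DMSO samples, and PCDHB3 averaged 1.93 ± 0.318 FPKM in combination samples and 1.21 ± 0.250 FPKM in DMSO samples (SD, n = 4 each). Only PCDHB3 of the 3 genes called higher had groups that overlapped, by combination replicate 3 at 1.49 FPKM and DMSO replicate 2 at 1.53 FPKM. PCDHB12 was not called, though it was without DMSO replicate 2 (log2 difference -0.19, limma adjusted p = 0.0191).

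The element of the beta promoters is shown for 7 genes, the first 2 called higher and the other 5 called lower, with CGCT in capitals, because it has nearly the same letters in genes that moved in opposite directions. The windows are at PCDHB10 at chr5:141192293-141192332, PCDHB3 at chr5:141100387-141100426, PCDHB16 at chr5:141182304-141182343, PCDHB9 at chr5:141187068-141187107, PCDHB7 at chr5:141172560-141172599, PCDHB5 at chr5:141135173-141135212 and PCDHB2 at chr5:141094538-141094577 on the plus strand (RefSeq, GRCh38.p14). GGTGGCGCT, which contains CGCT and was spelled from these beta promoters, was found in 13 of 14 beta promoters, in no other member, and in 0.619% of all genes. Of those 13 beta genes, 2 were called higher, 10 lower and 1 was not called in the fit with no filter. Over all genes of that fit, 20% were called higher and 16.5% lower. PCDHB1, the beta gene whose promoter lacks it, was not called.
PCDHB10: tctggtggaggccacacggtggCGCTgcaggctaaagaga
PCDHB3: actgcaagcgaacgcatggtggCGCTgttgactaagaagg
PCDHB16: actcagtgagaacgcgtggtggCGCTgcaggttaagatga
PCDHB9: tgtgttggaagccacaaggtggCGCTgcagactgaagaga
PCDHB7: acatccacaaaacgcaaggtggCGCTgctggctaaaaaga
PCDHB5: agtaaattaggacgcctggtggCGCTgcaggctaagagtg
PCDHB2: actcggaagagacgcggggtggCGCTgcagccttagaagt

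**Figure D3:**
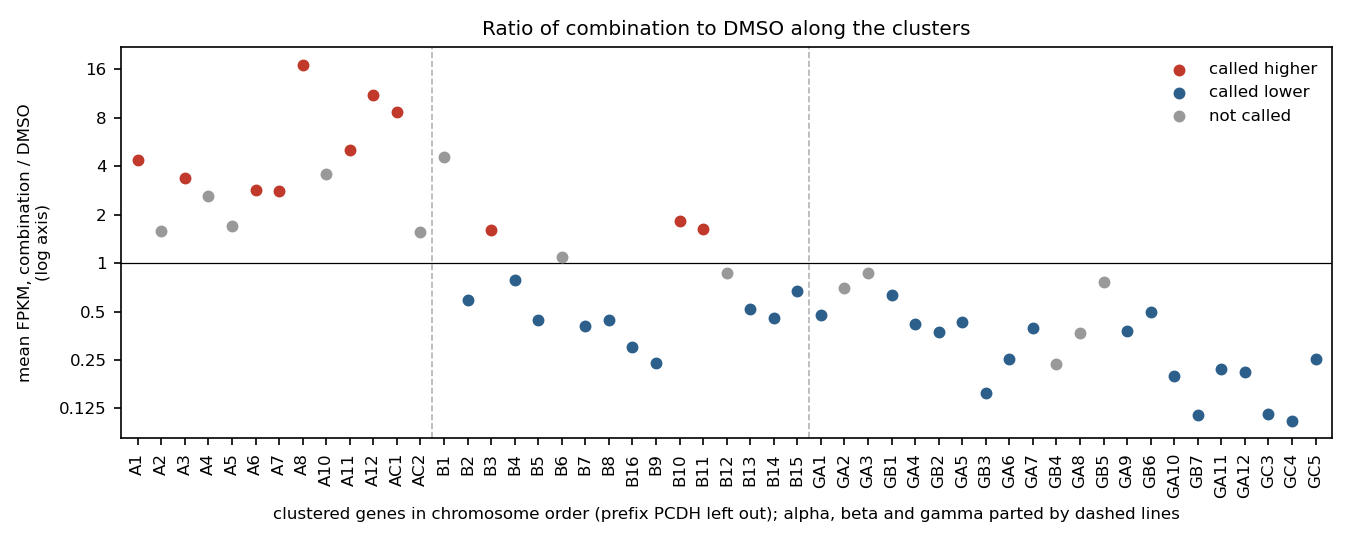
Ratio of mean FPKM in combination samples to mean FPKM in DMSO samples, on a log axis, for the clustered genes in chromosome order, with the prefix PCDH left out. Colours give the call in the fit with no filter, dashed lines part the clusters, and PCDHA9, PCDHA13 and PCDHA14 are left out because at least 1 group had 3 or fewer reads. All alpha genes drawn stand above 1, all gamma genes under 1 and beta genes on both sides.

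Of the 12 non-clustered genes, 6 passed the 1 FPKM filter, and of these 5 were called lower and 1 higher. In the same fit, 41.0% of all genes tested were called lower and 36.9% higher. PCDH12 passed the filter only through its combination samples, and PCDH18 and PCDH9 only through their DMSO samples. The count of this family therefore describes and supports nothing. PCDH1, an adhesion protein known from airway epithelium, was the most abundant of the non-clustered genes. PCDH1 stood at 26.5, 24.5, 27.6 and 25.2 FPKM in combination samples, against 39.3, 38.6, 36.8 and 41.7 FPKM in DMSO samples (log2 difference -0.57 ± 0.05, limma adjusted p = 2.76e-06). PCDH12, known as an adhesion protein of endothelium, stood at 2.27, 2.09, 2.27 and 2.04 FPKM in combination samples, against 0.337, 0.322, 0.334 and 0.418 FPKM in DMSO samples (log2 difference 1.23 ± 0.07, limma adjusted p = 1.75e-07). Its groups were far apart, and its DMSO level rested on 158 reads over 4 libraries. PCDH1 and PCDH12 both lie on the minus strand of chromosome 5 beyond the gamma cluster, at chr5:141853111-141879246 and chr5:141943585-141969741, and their calls were opposite. Endothelial markers were low: PECAM1 stood at 0.372 to 0.563 FPKM in combination samples and 0.00741 to 0.0463 FPKM in DMSO samples, CDH5 was listed at 0 in each DMSO sample, and the sum of all 6 markers was 1.16 to 1.60 FPKM in combination samples and 0.294 to 0.516 FPKM in DMSO samples. VWF and TEK also had higher means in combination samples, and KDR had groups that overlapped. CLDN5 went the other way, with means of 0.0663 FPKM in combination samples and 0.160 FPKM in DMSO samples. The part of these markers in the PCDH12 result was not tested.

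PCDH7 stood at 1.37, 1.24, 1.09 and 1.20 FPKM in combination samples, against 4.92, 4.70, 4.75 and 5.60 FPKM in DMSO samples (log2 difference -1.43 ± 0.06, limma adjusted p = 3.75e-08). PCDH10, whose cytoplasmic tail is known in mouse to recruit the actin regulator NCKAP1, stood at 2.51, 2.38, 2.67 and 2.57 FPKM in combination samples, against 4.65, 4.90, 5.18 and 4.89 FPKM in DMSO samples (log2 difference -0.74 ± 0.05, limma adjusted p = 3.50e-07). PCDH18 stood at 0.638, 0.796, 0.595 and 0.756 FPKM in combination samples, against 2.16, 2.76, 2.58 and 2.39 FPKM in DMSO samples (log2 difference -1.03 ± 0.08, limma adjusted p = 1.43e-06). These genes and PCDH9 belong to the delta protocadherins, which are known to be expressed in overlapping patterns in the developing brain. PCDH9 stood at 0.886, 0.816, 0.763 and 0.799 FPKM in combination samples, against 1.57, 1.55, 1.48 and 1.45 FPKM in DMSO samples (log2 difference -0.47 ± 0.06, limma adjusted p = 0.00011). PCDH15, part of the tip link of inner ear hair cells, had 7, 26, 17 and 20 reads in combination samples, against 2, 3, 0 and 1 reads in DMSO samples. Its groups did not overlap, and it was called higher in the fit with no filter (limma adjusted p = 0.0191). PCDH17 had 11, 14, 15 and 8 reads in combination samples, against 24, 19, 13 and 9 reads in DMSO samples, and its groups overlapped. PCDH19 and PCDH20 had at most 3 reads in any library. Of the exon bases of PCDH20, 95.8% lie under exons of another gene, so its few reads need not mean absence.

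**Figure D4:**
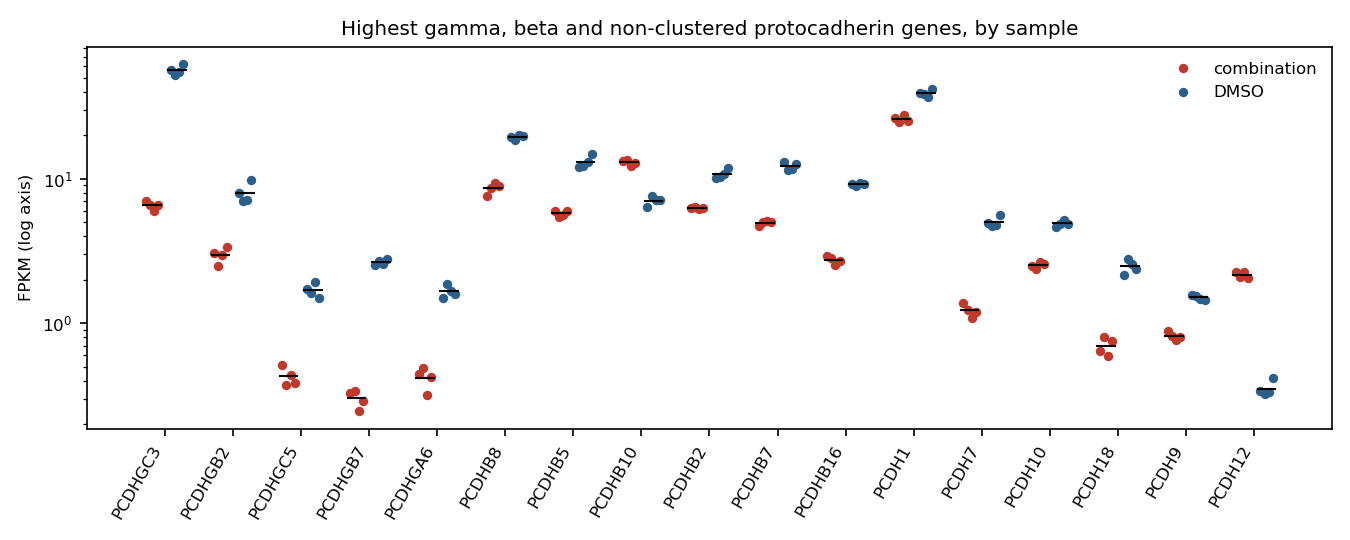
FPKM on a log axis of the 17 gamma, beta and non-clustered genes given by sample in the text, with combination samples left of DMSO samples. Points are samples and lines are group means. PCDHB10 and PCDH12 are the genes drawn whose combination samples stand above their DMSO samples; in the other 15 they stand below.

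How reads were assigned among overlapping genes bears on all clustered levels. All identifiers, coordinates and exon lengths of the members equalled those of GENCODE 29 on GRCh38, where the alpha genes share 2866 constant exon bases and the gamma genes 2181. Reads in these shared exons were not added to each gene of a cluster, since PCDHA9, whose length includes the constant exons, had 0 to 2 reads per library while PCDHA3 had 32 to 137. The length that FPKM divides by does include them, and the exon bases of a gene's own were 59.8% for PCDHGC3 and 41.7% for PCDHA1. The treatment of reads in shared exons is not stated, so FPKM of alpha and gamma genes is best set against the same gene in the other group, not against beta genes.

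Genes beside the clusters were called in both directions. Of 79 other genes within 500 kb of the clustered members, 27 were tested, of which 11 were called higher, 8 lower and 8 neither, with a median log2 difference of 0.15, where 36.9% of all genes tested were called higher and 41.0% lower. Among those called lower, AC005753.1 and AC005740.1 passed 1 FPKM only through their DMSO samples. Inside the clusters, TAF7, a subunit of the general transcription factor TFIID, averaged 84.7 ± 3.23 FPKM in combination samples and 73.9 ± 2.77 FPKM in DMSO samples (SD, n = 4 each; log2 difference 0.19 ± 0.04, limma adjusted p = 0.00117). The pseudogenes PCDHB17P and PCDHB18P inside the clusters were not called, with log2 differences of 0.12 and -0.21. DIAPH1, a formin gene just past the gamma cluster, was higher with a log2 difference of 0.27 ± 0.03 (limma adjusted p = 2.56e-05). The 4 neighbours with the smallest p were GNPDA1, HBEGF, RELL2 and ARAP3. GNPDA1, a glucosamine-6-phosphate deaminase, HBEGF, a growth factor that binds the EGF receptor, and RELL2 were higher with log2 differences of 1.80, 2.39 and 1.49. ARAP3, a regulator of small GTPases, was lower with a log2 difference of -0.65. This region also holds HDAC3, a target of panobinostat, at 29.4 ± 1.43 FPKM in combination samples and 17.2 ± 0.222 FPKM in DMSO samples (SD, n = 4 each; log2 difference 0.74 ± 0.04, limma adjusted p = 7.87e-08).

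Factors known to act on the clustered genes were lower almost throughout. Of 27 insulator, cohesin, methylation and silencing genes, 26 were tested, 25 were called lower and LRIF1 alone higher, beside 41.0% and 36.9% of all genes; with upper-quartile scaling 17 were lower and 1 higher, and the difference of REST and SMC3 changed sign. CTCF, the insulator protein of these loops, averaged 4.38 ± 0.144 FPKM in combination samples and 8.48 ± 0.251 FPKM in DMSO samples (SD, n = 4 each; log2 difference -0.82 ± 0.04). The cohesin subunits RAD21 and SMC1A were lower with log2 differences of -1.24 ± 0.04 and -1.67 ± 0.04. The methyltransferases DNMT1 and DNMT3B were lower with log2 differences of -1.94 ± 0.04 and -1.25 ± 0.07. Of the listed genes, DNMT3B and TET2 passed 1 FPKM only through their DMSO samples. SMCHD1, which is known to repress clustered protocadherin genes, was lower with a log2 difference of -0.99 ± 0.04, and LRIF1, which binds SMCHD1, was higher with 0.33 ± 0.04. REST, a repressor of neuronal genes, was lower with -0.21 ± 0.05 (limma adjusted p = 0.00462), but stood at 0.13 with upper-quartile scaling, where it was not called. The part of these factors in the alpha or gamma result was not tested.

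Genes of the proteins that protocadherins work with moved in both directions. Protocadherins are cut by ADAM10 and gamma-secretase, and of these 6 genes 4 were lower, those with the smallest p being NCSTN and ADAM10 (log2 differences -1.25 and -0.55), and PSENEN was higher with 0.37 (limma adjusted p = 0.0120). Of 12 tested cytoplasmic partners, among them the kinases and the WAVE complex that regulate actin, 2 were higher and 6 lower. Beside both lists, 36.9% of all genes tested were called higher and 41.0% lower. CYFIP2 and BRK1 were higher with 1.53 and 0.77, and WASF2 and NCKAP1 lower with -0.66 and -0.46, although NCKAP1 was not called with upper-quartile scaling (limma adjusted p = 0.106). With that scaling the list of cytoplasmic partners had 6 higher and 2 lower, where the whole table had 7626 higher and 3123 lower.

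Other adhesion genes were called in both directions, and the counts here cover genes that averaged 1 FPKM or more, of which 36.9% were called higher and 41.0% lower over the whole table. CDH19, CDH11, CHL1 and NLGN1 passed 1 FPKM only through their DMSO samples, so the counts of their lists describe and support nothing. With no filter and upper-quartile scaling each list had more genes higher than lower. Classical cadherins were 12 higher and 3 lower of 19, and catenins 2 higher and 1 lower of 7. Giant and seven-pass cadherins were 7 higher and 6 lower of 20, and other adhesion families 11 higher and 8 lower of 22. That scaling moved the whole table the same way, to 7626 genes higher and 3123 lower at 1 FPKM. No whole-table share was counted for it without the filter, so these counts set no list apart. Of 6 tested classical cadherins, 5 were lower and 1 was higher: CDH19 averaged 0.610 ± 0.0529 FPKM in combination samples and 17.5 ± 0.723 FPKM in DMSO samples, CDH13 was lower with a log2 difference of -1.11, and CDH24 was higher with 0.47. All 3 tested catenins, which link cadherins to actin, were lower, CTNND1 with -0.74 and CTNNA1 with -0.35; with upper-quartile scaling only 1 of them was lower, 1 was higher, and the differences of CTNNA1 (0.05, not called) and CTNNB1 changed sign. Of 6 tested giant and seven-pass cadherins and relatives, 5 were lower, led by CELSR1 and CELSR2 (-1.32 and -1.41), and CLSTN3 was higher with 1.09. Of 13 tested genes of other adhesion families, 8 were lower, led by CADM4 and NRCAM (-1.91 and -1.55), and 5 were higher. L1CAM averaged 26.4 ± 1.03 FPKM in combination samples and 3.09 ± 0.168 FPKM in DMSO samples (SD, n = 4 each; log2 difference 2.74 ± 0.04), and NCAM1 was higher with 0.92. Of 10 tested genes that often respond to HDAC inhibitors or encode HDACs, 7 were higher, led by TXNIP (2.13) and HDAC3 (0.74), and 2 lower, GSN (-0.55) and HDAC6 (-0.30); with upper-quartile scaling 8 were higher, and HDAC6 stood at 0.02 and was not called.

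Markers of cell types moved with the groups too, beside 36.9% of all tested genes called higher and 41.0% lower. STMN2, SYN1, NEFL, CLDN4 and COL1A1 passed 1 FPKM only through their combination samples, so the counts of their lists describe and support nothing. Neuronal markers were 6 higher and 1 lower of 7 tested, those with the smallest p being MAP2 (1.07) and NEFL (1.87), with a summed level of 40.0 to 41.4 FPKM in combination samples and 19.2 to 20.7 FPKM in DMSO samples, while DCX and ELAVL4 were at most 0.0565 FPKM in any sample. SYT1 was the lower one (-0.20) and stood at 0.13 with upper-quartile scaling, where it was not called. Of the astrocyte markers S100B alone was tested and was lower (-3.78). The sum of 6 was 18.6 to 20.9 FPKM in combination samples and 248.9 to 264.5 FPKM in DMSO samples. Most of it was S100B, with means of 17.8 FPKM in combination samples and 257 FPKM in DMSO samples. GFAP also had a lower mean in combination samples. SLC1A3 was higher, at 1.24 to 1.86 FPKM in combination samples and 0.184 to 0.290 FPKM in DMSO samples. SLC1A2, ALDH1L1 and AQP4 had higher means in combination samples too, at no more than 0.0478 FPKM in any sample. Of the oligodendrocyte lineage markers, SOX10 (-3.06) and CSPG4 (-3.33) were lower and OLIG2 was higher (0.43), and MBP was at most 0.0408 FPKM in any sample. Epithelial markers were 3 higher of 3 tested, led by CLDN4 (1.59) and KRT18 (0.75), with sums of 27.9 to 31.9 FPKM in combination samples and 14.8 to 15.9 FPKM in DMSO samples. Fibroblast markers were 3 higher of 3 tested, led by LUM (1.97) and COL1A1 (1.37), with sums of 46.4 to 50.3 FPKM in combination samples and 11.5 to 13.9 FPKM in DMSO samples. No endothelial or myeloid marker was tested, and the myeloid sum was 0.874 to 1.73 FPKM in combination samples and 0.265 to 0.607 FPKM in DMSO samples, with AIF1 at 0 throughout. Of 7 tested glioma line genes, 4 were lower, among them SOX2 (-3.03), NES (-1.67) and TNC (-2.22), 1 was higher, FN1 (0.24), and 2 were not called, with sums of 453.6 to 479.3 FPKM in combination samples and 933.9 to 943.1 FPKM in DMSO samples. The part of these shifts in the protocadherin results was not tested.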

How the data were processed

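RNA-seq was measured in 8 LN229 samples, 4 per group, and each sample's group was taken from its label. The deposited table holds FPKM values for 58735 genes, computed by the authors before deposit (FPKM per the file headers). Bowtie 0.12.2 appears in the submitters' processing notes, as do the genome builds GRCh37 and mm8, with no role stated. How reads were counted is not given in the sources used. All 58735 identifiers, coordinates and exon lengths equalled GENCODE release 29 (GRCh38).

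FPKM was tested as log2(FPKM + 1) with limma 3.58.1 (R 4.3.3) with a mean-variance trend, combination against DMSO, on genes averaging at least 1 FPKM, and p-values were adjusted by Benjamini-Hochberg across every gene in the fit, with a threshold of 0.05. Fold changes on this scale understate the change of low genes. Dividing FPKM by the value of 1 read gave whole reads for 100% of values (tolerance 0.02), and limma's voom on these reads, for genes with at least 10 reads in at least 4 libraries, called 6053 genes higher and 6890 lower of 16858. A fit with no filter was added after seeing the data, because no alpha gene passed 1 FPKM. Scripts were tested on simulated data. Promoters came from RefSeq (GRCh38.p14). Figures used matplotlib 3.10.9 and pandas 2.3.3.

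Members and lists were chosen with earlier results of these data known. Values per sample are given for members averaging at least 1 FPKM (at most 6 per family, by mean) and for non-clustered members under 1 FPKM with at least 20 reads in some sample; from each other list, up to 2 called genes each way by smallest p; always CTCF, RAD21, SMCHD1, REST, DNMT3B, TAF7 and DIAPH1; and up to 4 neighbours by smallest p. Other named genes were chosen after their values were seen. Alternatives changed the scaling, filter, pseudocount, test, replicate block and samples. The full count and summed level of the oligodendrocyte lineage list are not reported here.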

Additional observations from a re-analysis of the deposited data

Results flagged for a closer look

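In 4 of 116 groups of 4 samples checked, 1 sample stood apart from the other 3 by more than Dixon's 95% critical value for a group of that size, and chance alone gives about 1 such group in 20. PCDH12 in DMSO replicate 4 was 0.418 FPKM, above the 0.322 to 0.337 FPKM of the other DMSO samples, and every combination sample was still higher. PCDHA6 in DMSO replicate 4 was 0.186 FPKM, above the 0.0781 to 0.0919 FPKM of the others. PCDHB15 in DMSO replicate 3 was 4.85 FPKM, below the 5.20 to 5.25 FPKM of the others. PCDHGA4 in DMSO replicate 3 was 0.907 FPKM, below the 1.13 to 1.14 FPKM of the others.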

How the results depend on the processing

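The filter decided how many members could be called. Against 4 members higher and 20 lower at 1 FPKM, there were 11 higher with a filter at 0.1 FPKM, 11 with that filter and a pseudocount of 0.1, 14 higher and 32 lower with no filter, and 13 higher and 31 lower with voom. Over the companion lists, 31 calls of higher became 49, 49, 61 and 59 under the same settings. Over the whole table, 4902 genes higher became 7747 with no filter and 7425 with the 0.1 FPKM filter and pseudocount. Upper-quartile scaling, which shifted all genes by 0.41 on the log2 scale, gave 7626 higher and 3123 lower, and it turned the sign of PCDHB4 (0.044), CTNNA1 (0.054), HDAC6 (0.025), REST (0.13) and SYT1 (0.13), none of them then called. It also called PCDHB6 higher (0.45), and without the filter it left 16 members higher and 25 lower.

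Leaving out 1 sample at a time gave 4 members higher in each case and 19 to 21 lower; with no filter 11 to 16 higher and 30 to 33 lower; 31 to 32 and 67 to 68 calls over the lists; and 4732 to 4805 genes higher and 5294 to 5360 lower in the whole table. Samples with the same replicate number did not vary together (correlations -0.02 to 0.07, and 1 of 4 samples closest to its own number). No pairing by number was seen, though 4 samples per group cannot exclude that samples of the same number were handled together. With a replicate block there were 4 members higher and 19 lower (PCDHB4 lost, limma adjusted p = 0.0611), and with no filter 9 higher and 29 lower, where the calls lost included PCDH15, PCDHA6, PCDHA13 and PCDHAC1. PCDHGA9 was not called without combination replicate 1, 3 or 4 or DMSO replicate 1 (limma adjusted p 0.0588 to 0.0694). Most alpha genes had under 50 reads per library, which limits their precision.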
